A study of Mus musculus with 9 samples.

Results

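The 39 genes described here encode the basement membrane of blood vessels and the matrix around it. They were chosen by symbol and with earlier results of these data known. They comprise 15 basement membrane genes, 5 fibrillar collagen genes, 3 collagen VI genes and 16 other matrix genes. Each of the 39 symbols had its own row among the 56748 gene identifiers of the deposited count table. RNA was measured in 9 libraries of lung endothelial cells from C57BL/6 mice 6 weeks old, sorted as cells with CD31 on their surface and without CD45 or DAPI signal. There were 3 libraries of the genotype WT, 3 of DNMAML and 3 of Notch1f/f, and no treatment is given for any group. The name DNMAML is commonly used for a truncated form of a Mastermind-like coactivator that stops Notch receptors from switching on their target genes in the cells that make it. The name Notch1f/f commonly denotes 2 floxed copies of the receptor gene Notch1, which a recombinase can delete. Neither the recombinase nor its driver, nor whether WT mice carried it, is given in the sources used here. The labels do not tie each library to its own mouse, so p-values measure the spread between these libraries, which may in part be technical.

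Total counts ran from 15522100 to 27842496 per library. The endothelial cadherin gene Cdh5 ran from 5366 to 6656 CPM (counts relative to library sizes that were scaled by edgeR's TMM method), and Pecam1, which encodes CD31, from 3408 to 4353 CPM. Notch1 ran from 766 to 909 CPM in WT and from 679 to 872 CPM in DNMAML libraries, and it stood at 70.8, 29.5 and 176 CPM in Notch1f/f libraries 1, 2 and 3. Y-linked genes were expressed in 4 libraries, WT replicate 2, DNMAML replicates 1 and 3 and Notch1f/f replicate 1, while the other 5 had at most 0.62 CPM. Each genotype thus held male and female libraries, so more than 1 mouse stood behind each. The summed level of 19 lung fibroblast markers ran from 538 to 2205 CPM in WT, from 392 to 1934 CPM in DNMAML and from 140 to 645 CPM in Notch1f/f libraries. The summed level of 17 mural cell markers ran from 652 to 1005 CPM, from 385 to 818 CPM and from 167 to 327 CPM in the same order. In sorted bulk RNA, fewer cells of a type and less RNA per cell cannot be told apart.

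A basement membrane is a thin sheet of matrix on which endothelial cells sit. Laminin trimers and a network of collagen IV form its core, nidogens and the heparan sulfate proteoglycan perlecan link them, and collagens XV and XVIII join it to the tissue beyond. Fibrillar collagens and collagen VI build the matrix outside that sheet, and fibroblasts and mural cells are known as their main sources in the lung. Notch receptors on endothelial cells regulate sprouting, in which new vessels lay down collagen IV and the collagen-binding protein SPARC.

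Sequences at the start of 4 genes are shown because these are the members that rose, and the collagen IV genes Col4a1 and Col4a2 share theirs. The letters come from the RefSeq promoter table of build GRCm38.p6, in which 23 of the 39 members were found. Col4a1 on the minus strand and Col4a2 on the plus strand of chromosome 8 point away from each other, and their first exons overlap by 22 bases at chr8:11312805-11312826 (plus strand shown). For Col15a1 (chr4:47207762-47208011, plus strand) and Sparc (chr11:55420081-55420330, minus strand) the 250 bases before the start are shown, 5′ to 3′ on the strand of the gene. Capitals mark a GC box, GGGCGG, in the shared start and a CT repeat in Sparc, while Col15a1 held no match to a searched motif.
Col4a1 and Col4a2 shared start: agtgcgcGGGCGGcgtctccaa
Col15a1: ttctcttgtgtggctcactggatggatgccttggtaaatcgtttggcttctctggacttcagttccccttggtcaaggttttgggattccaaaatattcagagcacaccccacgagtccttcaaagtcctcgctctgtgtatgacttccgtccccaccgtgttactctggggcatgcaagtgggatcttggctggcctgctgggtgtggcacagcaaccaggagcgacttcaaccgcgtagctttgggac
Sparc: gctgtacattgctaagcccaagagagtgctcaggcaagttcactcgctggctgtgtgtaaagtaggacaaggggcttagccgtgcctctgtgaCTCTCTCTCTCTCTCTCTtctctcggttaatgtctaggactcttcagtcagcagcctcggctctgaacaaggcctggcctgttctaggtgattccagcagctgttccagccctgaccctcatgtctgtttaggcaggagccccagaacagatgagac

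Motifs were searched on both strands of windows of 300 bases, from 250 before to 50 after the start. GGGCGG was in at least 1 window of 15 of the 23 members and in 35.7% of all 32851 windows. Here and below members are counted as genes, some with several windows (28 in all), and the share is one of windows. GC content of the members, each by its window richest in GC, ran from 37.7% (Col3a1) to 81.3% (Ltbp4). The median of all windows was 52.7%, and the bearing of GC content on matches was not tested. TGGGAA, a core of the site bound by Rbpj (the DNA-binding partner of the Notch receptors), was in 25.6% of all windows and in those of 6 members: Col18a1, Hspg2, Lamb1, Nid1, Fbln5 and Vcan. The longer GTGGGAA, which contains it, was in 6.38% of all windows and in those of Hspg2 and Vcan. None of the 4 members that rose had either in its window. TATAAA was in 13.6% of all windows and in that of Col3a1 alone among members. AGATAA was in 11.2% of all windows and in that of no member. CTCTCTCTCT, a motif chosen after the Sparc sequence was seen, was in 1.14% of all windows and, among members, in that of Sparc. A match is a match of letters and no evidence of binding. The lack of a match in 300 bases is likewise no evidence that binding is absent.

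Levels of different genes are compared per kilobase of annotated exon. In WT the highest of the 39 were Sparcl1 at 286, Sparc at 270, Col4a1 at 252 and Col4a2 at 156 CPM per kilobase (means, n = 3). Mmrn2 followed at 60.6, Bgn at 52.8, Nid1 at 49.0, Lamb2 at 47.8 and Ltbp4 at 44.4 CPM per kilobase. The fibrillar collagen genes were lower, from 3.29 for Col5a1 to 12.0 for Col1a1. Col15a1 was 34th at 1.97 CPM per kilobase in WT, and its mean was 7.05 in DNMAML and 17.6 in Notch1f/f libraries. The lowest were Lum at 0.489 and Vcan at 0.306 CPM per kilobase.

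In Notch1f/f libraries 4 of the 39 members rose against WT and none fell: Col4a1, Col4a2, Col15a1 and Sparc. Their fitted folds are given on the log2 scale, with a standard error (SE) taken from the test itself. Col15a1 rose by 3.16 (SE 0.38), Col4a1 by 1.67 (SE 0.28), Col4a2 by 1.67 (SE 0.26) and Sparc by 1.41 (SE 0.25). Adjusted p was 0.0157, 0.0242, 0.0196 and 0.0289 in edgeR's quasi-likelihood test, with Benjamini-Hochberg adjustment over the 19486 genes tested, among them all 39 members. Of all genes tested, 0.513% rose and 0.323% fell by this rule, a smaller share than 4 of 39. Because the members were chosen with earlier results of these data known, comparisons with the shares of all genes are no independent evidence. At an unadjusted p under 0.05, 14 members were higher and 0 lower, against 6.8% and 6.64% of all genes. Every Notch1f/f library lay above every WT library for 12 members and below for 1 (Ltbp4), against 8.5% and 9.33% of all genes. DESeq2 called 9 members higher and none lower, with 2.57% of its genes higher: it added Col18a1, Hspg2, Eln, Fbln2 and Mmrn2. Over all genes, limma-voom called fewer than edgeR did, 36 higher and 33 lower beside 100 and 63. With the sex of the libraries as a term in edgeR, 6 members rose, the 4 plus Fbln2 and Mmrn2, against 0.801% of all genes. The count rested on single libraries. It was 0 without WT replicate 1 and 0 without WT replicate 2, 1 (Col4a2) without WT replicate 3, 8 without Notch1f/f replicate 1, and 2 (Col4a2 and Col15a1) without Notch1f/f replicate 2. The count over all genes moved the same way: 100 rose with all 9 libraries, 8, 11 and 23 without WT replicates 1, 2 and 3, 369 without Notch1f/f replicate 1 and 25 without Notch1f/f replicate 2. It was also 0 when the library highest in fibroblast markers was left out of each genotype, a setting chosen after the data were seen, in which 2 of all genes rose. Over these and the other settings the log2 difference stayed between 2.71 and 3.49 for Col15a1, 1.35 and 1.87 for Col4a1, 1.35 and 1.84 for Col4a2, and 1.21 and 1.65 for Sparc.

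In DNMAML libraries no member passed the threshold against WT, in a comparison in which 0.00513% of all genes rose (1 gene) and 0% fell. The same 4 genes were nevertheless higher in each DNMAML library than in each WT library. The log2 difference was 1.84 (SE 0.37) for Col15a1, 0.97 (SE 0.26) for Col4a2, 0.89 (SE 0.25) for Sparc and 0.81 (SE 0.28) for Col4a1, with adjusted p of 0.175, 0.328, 0.353 and 0.565 in edgeR. The comparison shares its WT libraries with the one above. At an unadjusted p under 0.05, 8 members were higher and 0 lower in edgeR, against 3.72% and 2.26% of all genes. All DNMAML libraries lay above all WT libraries for 9 members, against 7.58% of all genes: Col4a1, Col4a2, Col15a1, Nid1, Sparc, Emilin1, Mmrn2, Loxl2 and Col5a1. DESeq2 called Col15a1, Col4a2 and Sparc higher (0.884% of its genes), limma-voom called none (0%), and edgeR with sex as a term called Col15a1 and Sparc higher (0.154%). With the replicate number as a block in the 6 libraries compared, edgeR called 3 other members higher, Nid1 by 0.44, Col5a1 by 0.84 and Col6a3 by 0.56 on the log2 scale, against 1.17% of all genes. Each of these 3 number pairs holds a male and a female library, so sex and genotype vary together within pairs.

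Between Notch1f/f and DNMAML no member passed, with 0.0103% of all genes higher and 0.0103% lower. At an unadjusted p under 0.05, 6 members were higher in Notch1f/f (Col4a1, Col4a2, Col15a1, Hspg2, Fbln2 and Fbln5) and 1 was lower (Fn1), against 2.41% and 3.96% of all genes. Without overlap, 3 members were higher (Col15a1, Lamb2 and Fbln2) and 1 lower (Fn1), against 4.4% and 5.32%. DESeq2 called Col15a1 and Fbln2 higher (0.292% of its genes), and limma-voom called no member (0.0103%). Col15a1 was the only member with all WT libraries below all DNMAML libraries and those below all Notch1f/f libraries, an order that 0.349% of all genes showed.

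**Figure D1:**
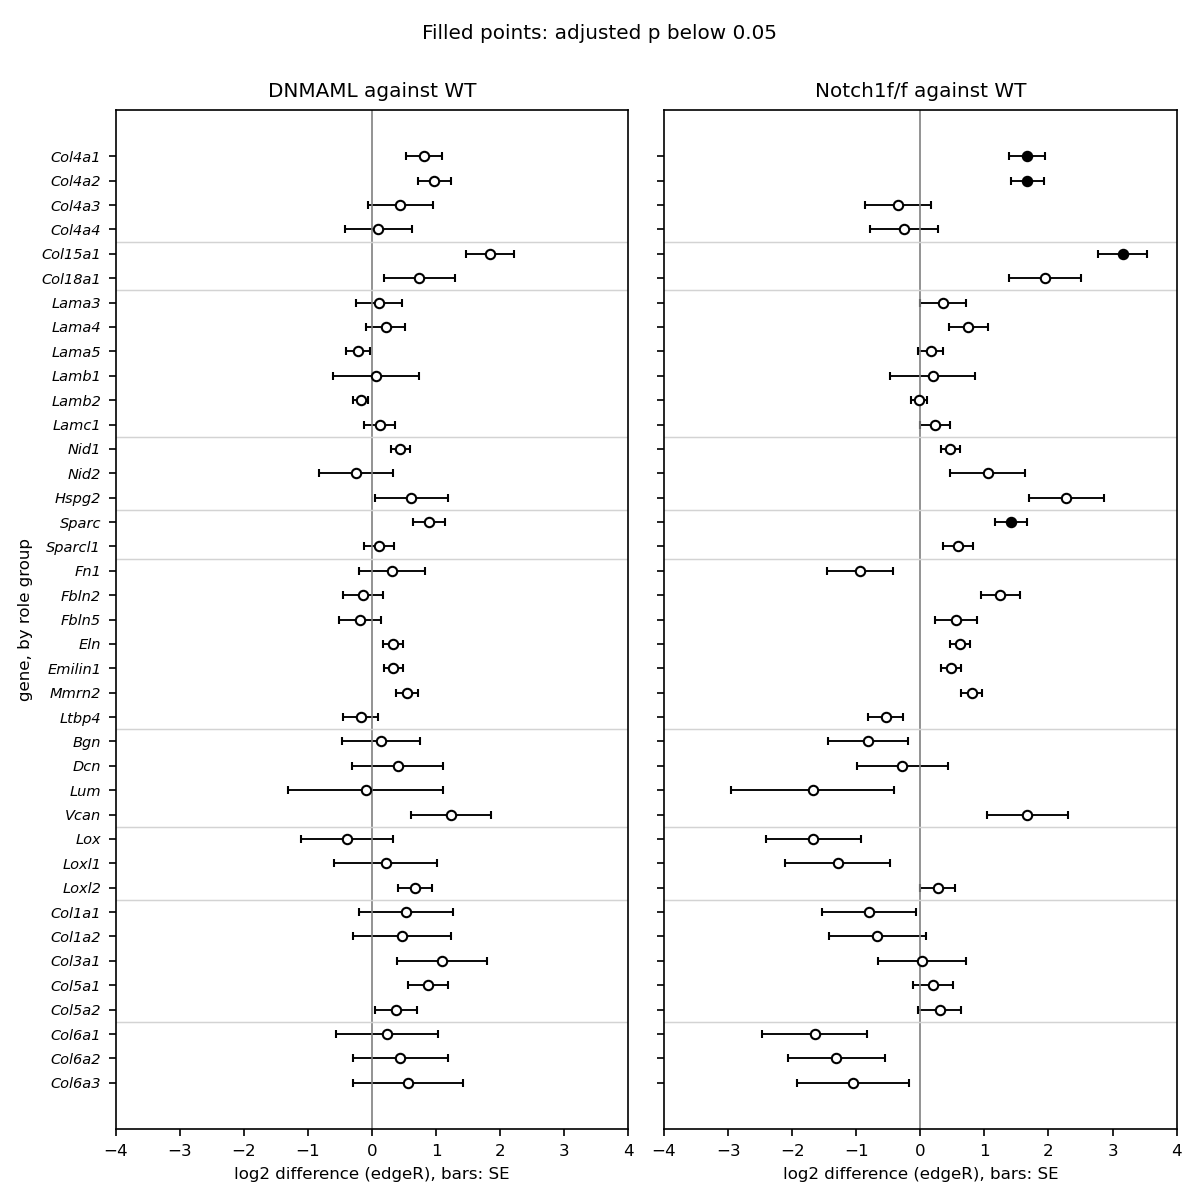
Log2 difference of each of the 39 genes (rows, by role group) for DNMAML against WT (left) and Notch1f/f against WT (right), from edgeR, with bars for SE and filled points for an adjusted p below 0.05. On the right Col4a1, Col4a2, Col15a1 and Sparc are filled, and on the left no point is.

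Collagen IV is the network-forming collagen of all basement membranes. Col4a1 (ENSMUSG00000031502, chr8:11248423-11362826, GRCm39) encodes the α1 chain and stood at 1736, 1617 and 2287 CPM in WT replicates 1, 2 and 3, at 2872, 4408 and 2619 CPM in DNMAML and at 4179, 8435 and 5343 CPM in Notch1f/f. Col4a2 (ENSMUSG00000031503, chr8:11362805-11499287), whose product joins the α1 chain in a trimer, stood at 962, 914 and 1227 CPM in WT, at 1742, 2678 and 1653 CPM in DNMAML and at 2436, 4614 and 2816 CPM in Notch1f/f. For both genes the WT libraries lay below all others, replicate 2 was highest in DNMAML and in Notch1f/f, and the DNMAML and Notch1f/f ranges overlapped. The level of Col4a1 varied 5.22-fold over the 9 libraries, while its ratio to Col4a2 per kilobase stayed between 1.41 and 1.68. The 22 bases in which their exons overlap in the annotation are 0.295% of the exon length of Col4a1, so they can add little to either count.

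Col4a3 and Col4a4 encode chains of the trimer found in lung alveolar and kidney basement membranes, and they too lie head to head, on chromosome 1. Col4a3 ran from 7.16 to 31.6 CPM and Col4a4 from 6.39 to 24.5 CPM over the 9 libraries, and groups overlapped for both. Their log2 differences in Notch1f/f against WT were -0.35 (SE 0.51) and -0.25 (SE 0.53), and no call was made. The ratio of Col4a3 to Col4a4 per kilobase was 1.10 to 1.76. Both genes were lowest in Notch1f/f replicate 1 and DNMAML replicate 2, the libraries in which 17 alveolar epithelial markers also had their lowest sums, 365 and 425 CPM. The part of epithelial RNA in these genes was not tested.

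Collagens XV and XVIII carry sugar chains and sit at the outer face of the basement membrane, and their released ends are known as inhibitors of vessel growth. Col15a1 (ENSMUSG00000028339, chr4:47208161-47313167, GRCm39) stood at 14.6, 9.10 and 13.8 CPM in WT, at 34.7, 63.2 and 36.4 CPM in DNMAML and at 85.6, 172 and 77.7 CPM in Notch1f/f. The 3 groups did not overlap, and the highest library was 18.9 times the lowest, the widest range among the 15 basement membrane genes. Col18a1 stood at 39.6, 19.7 and 34.6 CPM in WT, at 57.2, 60.6 and 39.1 CPM in DNMAML and at 42.5, 207 and 113 CPM in Notch1f/f. Its Notch1f/f replicate 1 lay just above the highest WT library, and the difference of 1.94 (SE 0.56, log2) had an adjusted p of 0.176 in edgeR.

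**Figure D2:**
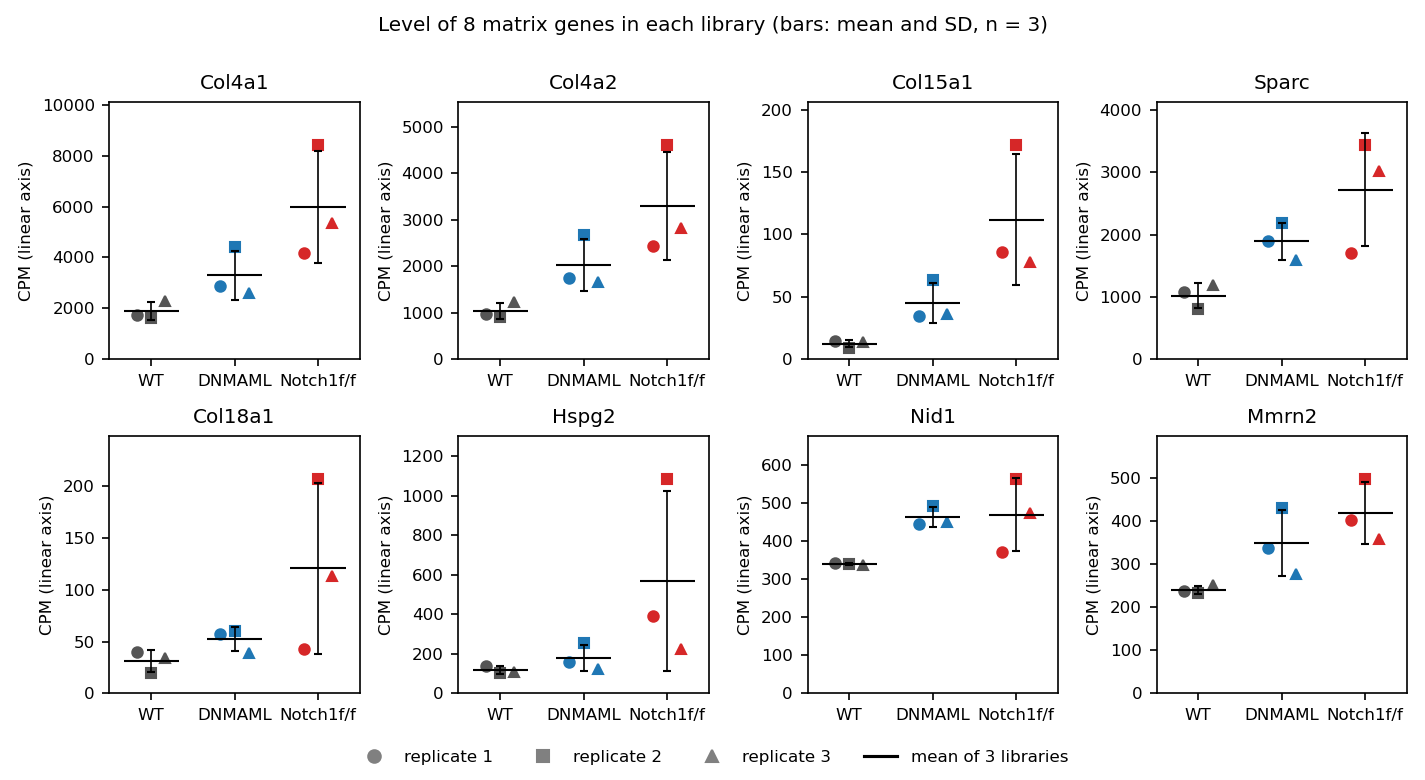
CPM (linear axes from 0) of 8 genes in the 3 libraries of each genotype, with bars for the mean and SD (n = 3) and a marker shape for each replicate. Col4a1, Col4a2, Col15a1 and Sparc lie higher in all Notch1f/f than in all WT libraries, and Notch1f/f replicate 2 is the highest of the 9 libraries in all 8 panels.

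Laminins are the trimers that cells bind first, and no laminin member passed in any comparison. Lama5, the α5 chain of mature vessel basement membranes, stood at 439, 576 and 450 CPM in WT, at 353, 532 and 371 CPM in DNMAML and at 627, 562 and 453 CPM in Notch1f/f. All groups overlapped. Lamb2, the β2 chain, was the steadiest member, from 252 to 312 CPM. Lamc1 (the γ1 chain) ran from 215 to 498 CPM, Lama4 (the α4 chain, typical of endothelium) from 79.5 to 278 CPM, Lamb1 (the β1 chain) from 37.6 to 211 CPM and Lama3 (an epithelial α3 chain) from 15.8 to 46.2 CPM. The median log2 difference of the 6 laminin genes was 0.21 in Notch1f/f and 0.08 in DNMAML against WT, beside 0.02 and 0.01 for all genes.

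Nidogens and perlecan link laminin to collagen IV. Nid1 (nidogen-1) stood at 343, 339 and 338 CPM in WT, at 445, 493 and 450 CPM in DNMAML and at 371, 564 and 474 CPM in Notch1f/f. Every DNMAML and Notch1f/f library lay above every WT library. The WT libraries had an SD of 2.57 CPM (n = 3), and the log2 differences were 0.44 and 0.47 (SE 0.15 each, adjusted p 0.553 and 0.166 in edgeR). Hspg2, which encodes perlecan, stood at 140, 104 and 108 CPM in WT, at 157, 255 and 125 CPM in DNMAML and at 394, 1086 and 227 CPM in Notch1f/f. All Notch1f/f libraries exceeded WT, but they differed among themselves so widely that 2.28 (SE 0.59, log2) had an adjusted p of 0.14 in edgeR. Nid2 (nidogen-2) stood at 13.7, 11.6 and 14.5 CPM in WT, at 9.83, 9.89 and 13.9 CPM in DNMAML and at 8.68, 57.0 and 16.7 CPM in Notch1f/f, so a single library was far above the other 8. Of its exon length 8.446% overlaps the gene Rtraf on the other strand, and how far this alters its counts was not tested.

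SPARC binds collagen IV and is made by sprouting endothelium. Sparc (ENSMUSG00000018593, chr11:55285326-55314009, GRCm39) stood at 1075, 804 and 1192 CPM in WT, at 1894, 2188 and 1598 CPM in DNMAML and at 1709, 3449 and 3020 CPM in Notch1f/f. The WT libraries lay below all others, and DNMAML and Notch1f/f overlapped. Its relative Sparcl1, also abundant in endothelium, ran from 669 to 1054 CPM in WT, from 797 to 1051 CPM in DNMAML and from 902 to 1644 CPM in Notch1f/f, with groups that overlapped. The ratio of Sparc to Sparcl1 per kilobase was 0.791 to 1.16 in WT, 1.55 to 1.68 in DNMAML and 1.47 to 1.89 in Notch1f/f libraries, so WT lay apart from both in this ratio, which was chosen after the levels were seen.

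Among 7 genes for fibronectin, fibulins and elastic fibres, none passed. Mmrn2 (multimerin-2, an endothelial ligand of the receptors CD93 and CLEC14A) came nearest: it stood at 237, 234 and 251 CPM in WT, at 339, 430 and 278 CPM in DNMAML and at 402, 499 and 359 CPM in Notch1f/f. WT lay below all others, and the Notch1f/f difference of 0.80 (SE 0.17, log2) had an adjusted p of 0.0525 in edgeR. Fbln2 (fibulin-2) stood at 46.6, 32.6 and 65.3 CPM in WT, at 32.6, 58.8 and 40.0 CPM in DNMAML and at 89.3, 154 and 99.4 CPM in Notch1f/f, which lay above the other 6 libraries. Its log2 difference was 1.25 (SE 0.31) against WT and 1.38 (SE 0.32) against DNMAML, with adjusted p of 0.106 and 0.41 in edgeR.

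Eln (elastin) ran from 140 to 163 CPM in WT and from 192 to 281 CPM in Notch1f/f, and Emilin1 (an elastic fibre glycoprotein) from 84.5 to 97.3 and from 104 to 155 CPM. Both were higher in Notch1f/f without overlap. Fbln5 (fibulin-5, which helps to assemble elastin) ran from 26.5 to 87.2 CPM over all libraries and overlapped between groups. Fn1 (fibronectin) ran from 120 to 496 CPM in WT, from 264 to 504 CPM in DNMAML and from 119 to 202 CPM in Notch1f/f. Ltbp4, which holds latent TGF-β in the matrix, ran from 226 to 403 CPM in WT and from 163 to 220 CPM in Notch1f/f, with a log2 difference of -0.54 (SE 0.27, adjusted p 0.429 in edgeR).

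The proteoglycan genes did not move together. Bgn (biglycan, a small collagen-binding proteoglycan) stood at 483, 202 and 282 CPM in WT, at 545, 145 and 375 CPM in DNMAML and at 106, 135 and 305 CPM in Notch1f/f. Its libraries differed more within a genotype than between genotypes. Vcan (versican, a large proteoglycan) stood at 4.84, 3.97 and 4.49 CPM in WT, at 9.46, 18.5 and 3.22 CPM in DNMAML and at 6.71, 25.6 and 9.92 CPM in Notch1f/f. All Notch1f/f libraries exceeded WT, with a log2 difference of 1.67 (SE 0.63, adjusted p 0.274 in edgeR). Lum (lumican, made by fibroblasts) was near the limit of detection at 2.5, 0.385 and 0.714 CPM in WT, 2.17, 0.899 and 0.292 CPM in DNMAML and 0.448, 0 and 0.676 CPM in Notch1f/f, or at most 54 counts. The related Dcn (decorin) ran from 2.75 to 26.5 CPM and overlapped between all groups.

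Lysyl oxidases crosslink collagen and elastin. Lox stood at 67.2, 14.0 and 30.5 CPM in WT, at 47.5, 13.5 and 24.0 CPM in DNMAML and at 7.43, 7.26 and 20.6 CPM in Notch1f/f. Loxl1, the member with a role in elastin, stood at 81.1, 21.6 and 37.7 CPM in WT, at 100, 21.7 and 40.5 CPM in DNMAML and at 8.68, 12.8 and 36.0 CPM in Notch1f/f. Both ran in the same order within each genotype except between Notch1f/f replicates 1 and 2, and neither passed, with log2 differences of -1.67 (SE 0.74) and -1.29 (SE 0.82) in Notch1f/f. Loxl2, which acts on collagen IV, ran from 14.0 to 17.7 CPM in WT, from 22.1 to 29.8 CPM in DNMAML and from 11.5 to 25.6 CPM in Notch1f/f, so DNMAML lay above WT (0.67, SE 0.27, adjusted p 0.718 in edgeR).

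The fibrillar collagens form the banded fibres of the interstitium, and no fibrillar collagen gene passed. Col3a1, which encodes the chain of collagen III, stood at 117, 52.4 and 80.4 CPM in WT, at 321, 78.4 and 132 CPM in DNMAML and at 41.2, 59.7 and 155 CPM in Notch1f/f. Col1a1 ran from 20.6 to 204 CPM and Col1a2, its partner in collagen I, from 25.5 to 225 CPM. Their ratio per kilobase was 1.36 to 2.08, so the partners moved together over the 9 libraries while the groups overlapped. Col5a1 ran from 19.5 to 77.2 CPM and Col5a2 from 40.0 to 114 CPM, the chains of the collagen V that starts fibrils. The median log2 difference of the 5 genes was 0.03 in Notch1f/f and 0.53 in DNMAML against WT.

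Collagen VI forms beaded filaments near basement membranes. Col6a1 stood at 151, 51.1 and 83.1 CPM in WT, at 199, 33.7 and 101 CPM in DNMAML and at 15.8, 18.2 and 57.0 CPM in Notch1f/f. Col6a2 stood at 119, 54.0 and 62.2 CPM in WT, at 176, 41.4 and 102 CPM in DNMAML and at 14.4, 18.5 and 62.3 CPM in Notch1f/f. Col6a3 stood at 127, 34.1 and 52.4 CPM in WT, at 180, 42.6 and 93.8 CPM in DNMAML and at 14.1, 18.9 and 70.6 CPM in Notch1f/f. The 3 genes ranked the libraries of each genotype in the same order. Their log2 differences in Notch1f/f against WT were -1.65, -1.31 and -1.05 (SE 0.82, 0.76 and 0.87), and none passed. Notch1f/f replicate 3 lay within the WT range for each. Within each genotype the library highest in collagen VI was also the one highest in fibroblast markers.

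**Figure D3:**
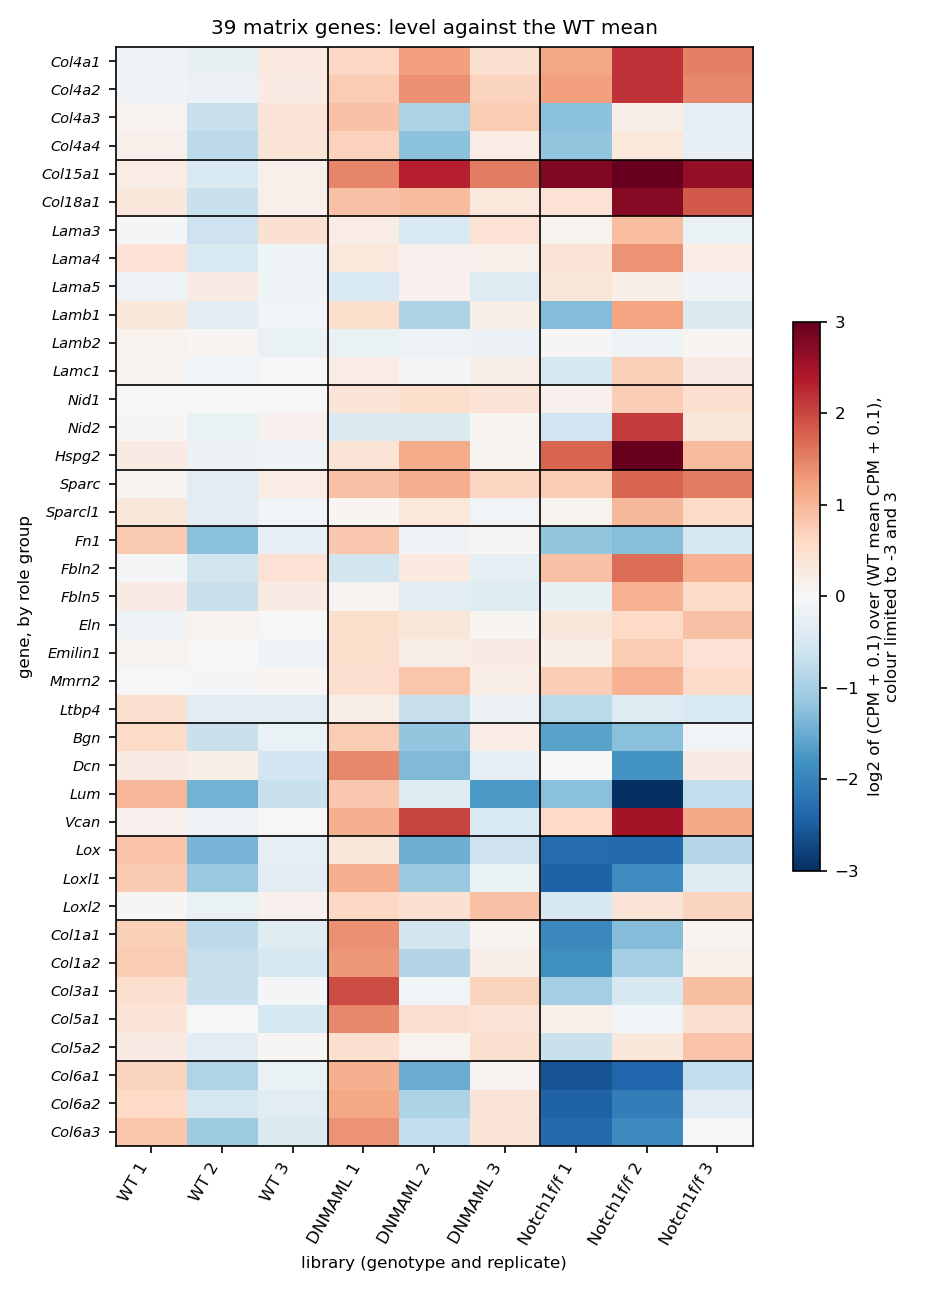
Level of the 39 genes (rows, by role group) in the 9 libraries (columns), as log2 of CPM over the WT mean with 0.1 CPM added to both, limited to -3 and 3. Col4a1, Col4a2, Col15a1 and Sparc are red in all DNMAML and Notch1f/f libraries, while the collagen VI rows are reddest in DNMAML replicate 1.

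Basement membrane and fibrillar collagen genes were then set against each other. The CPM of the 15 basement membrane genes summed to 4649, 4369 and 5294 in WT, to 6631, 9253 and 6218 in DNMAML and to 8878, 17030 and 10427 in Notch1f/f libraries. All DNMAML libraries exceeded all WT libraries in this sum, and DNMAML and Notch1f/f overlapped. Col4a1 and Col4a2 made up 57.9% to 78.2% of it, and without them the sums were 1951, 1838 and 1780 CPM in WT, 2017, 2168 and 1946 CPM in DNMAML, and 2263, 3982 and 2268 CPM in Notch1f/f. The 5 fibrillar collagen genes summed to 511, 233 and 290 CPM in WT, to 917, 289 and 444 CPM in DNMAML and to 159, 243 and 492 CPM in Notch1f/f, and all groups overlapped.

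The ratio of the basement membrane sum to the fibrillar sum was 9.11, 18.8 and 18.3 in the WT libraries. It was 7.23, 32.1 and 14.0 in the DNMAML libraries, and 56.0, 70.0 and 21.2 in those of Notch1f/f. Each Notch1f/f library was above each WT library in this ratio, but Notch1f/f replicate 3 lay below DNMAML replicate 2. The means were 15.4 ± 5.45, 17.8 ± 12.8 and 49.1 ± 25.1 (SD, n = 3). Counting each gene alike gave another order. The mean log2 of CPM (0.1 CPM added) over the 15 basement membrane genes, minus that over the 5 fibrillar genes, was 0.254, 0.851 and 1.04 in the WT libraries and -0.241, 1.08 and 0.624 in the DNMAML libraries. In the Notch1f/f libraries it was 1.95, 2.60 and 0.729, so replicate 3 lay below WT replicates 2 and 3, and the DNMAML mean of 0.489 was below the WT mean of 0.716. No test was made on either measure, whose terms were chosen with earlier results known. By single genes, 12 of the 15 basement membrane genes and 3 of the 5 fibrillar genes had a log2 difference above 0 in Notch1f/f against WT, with medians of 0.47 and 0.03. The same genes gave 12 of 15 and 5 of 5, with medians of 0.21 and 0.53, in DNMAML against WT, so in that comparison the fibrillar median was the higher. Between Notch1f/f and DNMAML the medians were 0.39 and -1.06, and that of collagen VI was -1.75.

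**Figure D4:**
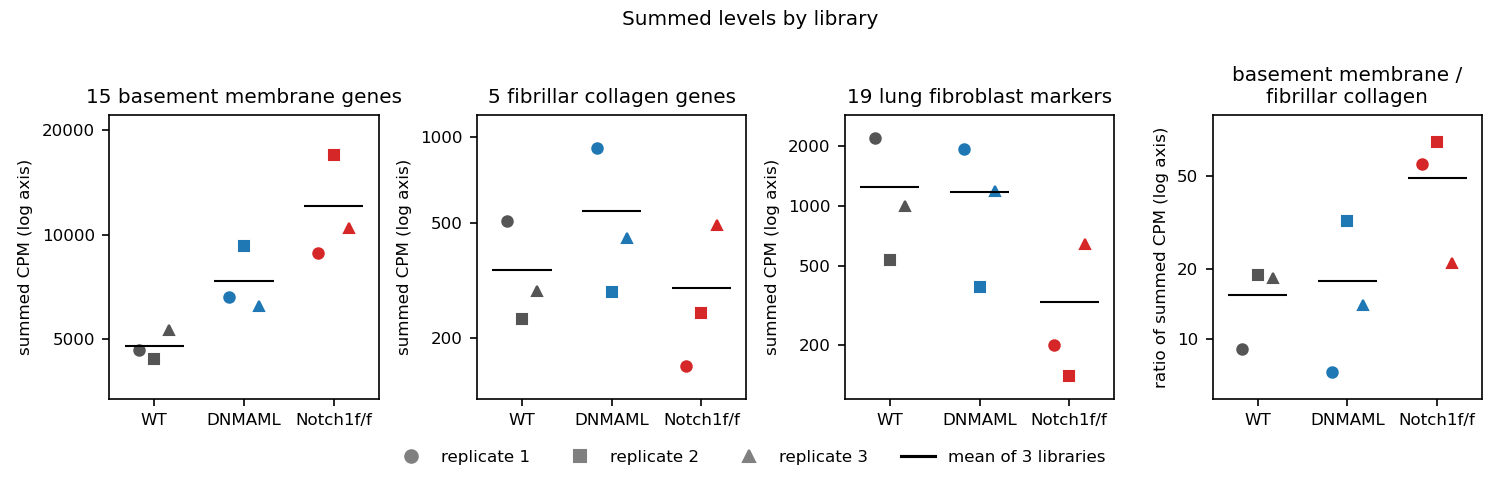
Summed CPM of the basement membrane genes, fibrillar collagen genes and fibroblast markers, and the ratio of the first to the second (log axes), in the 3 libraries of each genotype, with lines for means. The basement membrane sums of DNMAML and Notch1f/f lie above WT, while the fibrillar sums and the fibroblast sums are highest in the same library of each genotype.

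Of the 24 members outside the basement membrane, 14 shared their highest library with the fibroblast markers in every genotype. The order of the lower libraries could differ. In Notch1f/f replicates 1 and 2 the fibroblast sum was 201 and 140 CPM and the fibrillar sum 159 and 243 CPM. The library highest in the fibroblast sum was replicate 1 in WT and DNMAML and replicate 3 in Notch1f/f. In all 3 of these libraries, 14 of the 39 members also reached the highest level of their genotype: the 5 fibrillar and 3 collagen VI genes, Fn1, Bgn, Dcn, Lum, Lox and Loxl1. None of the 15 basement membrane genes did, and 6.57% of all genes tested did. With only 15 genes, a count of 0 does not stand apart from that share. The fibroblast marker Inmt, a methyltransferase gene of lung fibroblasts, stood at 893, 188 and 361 CPM in WT, 566, 69.8 and 361 CPM in DNMAML and 49.3, 17.7 and 119 CPM in Notch1f/f. The second most abundant marker, Mfap4, ran from 56.7 to 255, from 117 to 416 and from 31.2 to 220 CPM. In Notch1f/f against WT, 17 of the 19 fibroblast markers had a log2 difference below 0 (median -1.70, beside 0.03 for the fibrillar collagens). None of the 19 passed in edgeR, with 6 lower and 1 higher at an unadjusted p under 0.05. Of all genes 6.64% were lower and 6.8% higher at that cut.

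In Notch1f/f against WT 5 of the 17 mural markers fell in edgeR, beside 0.323% of all genes. They were Pdgfrb, Cspg4, Notch3, Higd1b and Gucy1a1, with log2 differences of -2.36 to -2.05. Gucy1a1 ran from 207 to 309 CPM in WT and from 42.4 to 79.3 CPM in Notch1f/f, and Pdgfrb, the receptor of pericytes, from 156 to 251 and from 33.0 to 54.5 CPM. The fibrillar sum divided by the fibroblast sum was 0.232 to 0.432 in WT, 0.372 to 0.736 in DNMAML and 0.762 to 1.73 in Notch1f/f libraries. The part of fibroblast or mural cell RNA in the interstitial members was not tested. Col4a1, Col4a2 and Sparc were highest in the fibroblast-rich library of no genotype, as were 8 of the 39 members and 36.1% of all genes. Col15a1 was highest there in WT, at 14.6 CPM beside 9.10 and 13.8 CPM, and not in DNMAML or Notch1f/f.

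Other marker sums also differed between libraries. Alveolar epithelial markers, led by the surfactant genes Sftpc and Sftpa1, summed to 681 to 4096, 425 to 2148 and 365 to 1490 CPM in WT, DNMAML and Notch1f/f, and mesothelial markers, led by Krt19 and Upk1b, to 17.2 to 58.9, 23.3 to 44.4 and 8.86 to 29.5 CPM. Leukocyte markers, led by Lyz2 and Laptm5, summed to 125 to 835, 387 to 712 and 152 to 356 CPM, and platelet markers, led by Ppbp and Itga2b, to 96.1 to 461, 58.5 to 1132 and 29.9 to 382 CPM. The leukocyte sum was mostly Lyz2, which had a log2 difference of -0.23 in DNMAML against WT. The other 12 leukocyte markers tested had differences above 0 there, and the median of all 13 was 2.24. None passed in edgeR, and 4 were higher at an unadjusted p under 0.05, beside 3.72% of all genes. Ptprc, which encodes CD45, stood at 4.99, 2.95 and 0.408 CPM in WT, at 28.0, 26.7 and 1.39 CPM in DNMAML and at 14.5, 4.96 and 1.58 CPM in Notch1f/f. Lymphatic markers, led by Lyve1 and Flt4, held at 759 to 1047 CPM over all libraries. Immediate early genes, led by Jun and Fos and known to rise during tissue dissociation, summed to 3096 to 12800 CPM. Cell cycle genes, led by Mki67 and Pcna, summed to 102 to 118 CPM in WT, 421 to 521 CPM in DNMAML and 160 to 646 CPM in Notch1f/f libraries. All 20 had a log2 difference above 0 against WT, with medians of 3.17 in DNMAML and 3.13 in Notch1f/f. In edgeR 9 passed in Notch1f/f and 1 (Aspm) in DNMAML, beside 0.513% and 0.00513% of all genes higher. The part of any of these in the matrix results was not tested.

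Single libraries stood apart in the members' levels. Some members were lower in the male than in the female libraries of each genotype, though none passed a test for sex. Notch1f/f replicate 2, which had the lowest Notch1 level, was the highest Notch1f/f library for 13 of the 15 basement membrane genes and for 21 of the 39 members, against 28.8% of all genes. Notch1f/f replicate 1 had less Notch1 than replicate 3 (70.8 and 176 CPM). It exceeded replicate 3 for Col15a1 and Hspg2 and lay below it for Col4a1, Col4a2 and Sparc. A relation of these levels to that of Notch1 was not tested. In all 3 genotypes every male library lay below every female library for 7 members, Col4a1, Col4a2, Col18a1, Sparc, Sparcl1, Fbln2 and Vcan, and for 3.04% of all genes. Of these 7, 3 are basement membrane genes. The male library was replicate 2 alone in WT and replicate 1 alone in Notch1f/f, and the female one replicate 2 alone in DNMAML. Sex and single libraries therefore cannot be told apart in this order. In a fit with sex as a term no member differed between the sexes after adjustment (0% of all genes were lower in males), and at an unadjusted p under 0.05 edgeR gave 9 members lower in males and 0 higher, against 2% of all genes lower. The difference between males and females was -0.57 (SE 0.17, log2) for Col4a1 and -0.58 (SE 0.15) for Sparc. With sex in the fit the Notch1f/f difference of Col4a1 was 1.64 and that of Sparc 1.38, close to the values without it.

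Genes of matrix assembly, receptors and turnover outside the 39 gave 2 calls in all. Of 18 other basement membrane genes 1 rose and 0 fell in Notch1f/f against WT: Vwa1, which encodes a perlecan-binding protein, stood at 2.55, 2.31 and 5.35 CPM in WT, at 6.46, 14.4 and 4.60 CPM in DNMAML and at 29.3, 97.8 and 34.3 CPM in Notch1f/f, a log2 difference of 3.97 (SE 0.67, adjusted p 0.0426 in edgeR). Of 21 matrix proteases and inhibitors tested, Plat, the tissue plasminogen activator, rose by 1.34 (SE 0.22, adjusted p 0.0207), from 38.2 to 48.7 CPM in WT to 77.4 to 131 CPM in Notch1f/f. None of 26 interstitial and elastic matrix genes, 24 genes of collagen biosynthesis and crosslinking and 26 matrix receptors passed in either direction in edgeR, with 2, 2 and 5 higher and 7, 3 and 7 lower at an unadjusted p under 0.05. At the same cut 4 of the 18 other basement membrane genes were higher and 3 lower. Of the 21 proteases and inhibitors 6 were higher and 4 lower. The shares of all genes are the 6.8% higher and 6.64% lower given above, and 0.513% rose and 0.323% fell after adjustment. No gene of these 5 lists passed in edgeR in DNMAML against WT, where 0, 2, 1, 0 and 1 were higher and 0, 0, 0, 0 and 1 lower at an unadjusted p under 0.05 (in the order basement membrane, proteases, interstitial, biosynthesis, receptors), beside 3.72% and 2.26% of all genes. Between Notch1f/f and DNMAML none passed either, with 5, 2, 2, 2 and 2 higher and 3, 2, 5, 2 and 5 lower in that order, beside 2.41% and 3.96% of all genes. The median log2 difference of the other basement membrane genes was -0.44 in Notch1f/f against WT, opposite in sign to the 0.47 of the 15 members. The collagen-modifying genes summed to 3094 to 3866 CPM and the matrix receptors to 8974 to 9847 CPM, ranges in which the groups overlapped.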

How the data were processed

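The authors deposited 1 table for the 9 libraries that holds read counts as whole numbers for each gene, without normalization. Per the file headers, featureCounts 2.0.1 counted reads over Ensembl release 107 (GRCm39). STAR 2.7 and the build mm10 are named in the submitters' processing notes, so build and header disagree. No setting for strand or read pairs stands in the recorded command, per the file headers. Among counts below 200, 76.6% to 89.0% were even, so a fragment may often enter as a pair of counts. Total RNA libraries depleted of ribosomal RNA were made in 1 batch with a stranded kit, per the labels' protocols.

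Symbols were taken from an annotation of GRCm38, which held 52073 of the 56748 identifiers. edgeR 4.0.16 (R 4.3.3) was run on the 9 libraries with a term for genotype alone: filterByExpr (19486 genes), TMM, robust quasi-likelihood, Benjamini-Hochberg, threshold 0.05. SE is the size of the log2 difference over the root of F and restates the test. DESeq2 1.42.0, limma-voom (limma 3.58.1), other scalings and filters, a replicate block and leaving out each library were alternatives. Fits were tested on simulated counts. CPM was computed from the deposited counts on TMM-scaled totals, and CPM per kilobase with the table's exon lengths. Precision is limited by 3 libraries per group.

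What the replicate number marks is not in the labels. Deviations of log2 CPM from the group means correlated at 0.508, 0.284 and 0.167 between WT and DNMAML libraries of the same number and at -0.346 to -0.0239 between others. The number was tried as a block in alternative fits, while the main fit had no pairing. Notch1f/f libraries gave -0.261, -0.119 and 0.225 with WT libraries of their number and -0.481 to 0.544 with others. Values as high thus arose between libraries of unlike number, so the correlations do not establish a pairing. Values in every library are given for members past the threshold, the most abundant member of each role group and the 3 largest differences each way per comparison. The members and lists were chosen with earlier results of these data known.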

Additional observations from a re-analysis of the deposited data

How the results depend on the processing

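Against WT, Notch1f/f had 4 members higher, and 9 with DESeq2, 13 without a filter on low counts, 1 with the replicate block in the 6 libraries compared, 0 to 8 when a library was left out (the 0 without WT replicate 1 and without WT replicate 2, the 8 without Notch1f/f replicate 1), and 0 with the most fibroblast-rich library of each genotype left out. With no filter 10 members were lower. Over all genes the counts higher were 100, 539 with DESeq2, 664 (751 lower) with no filter, 50 with the block, 8 to 369 when a library was left out and 2 without the fibroblast-rich libraries. DNMAML had 0 members higher, and 3 with DESeq2, 9 with no filter, 1 with only the 6 libraries compared, 3 with the replicate block in those 6 and 2 with sex as a term. It was 0 when any single library was left out. Over all genes the counts higher were 1, 174 with DESeq2, 361 with no filter, 65 in the 6 libraries, 212 with the block and 30 with sex. Between Notch1f/f and DNMAML the counts were 0 in both directions, and 2 higher with DESeq2, 9 higher and 11 lower with no filter, and 1 higher (Fbln2) with the replicate block, beside 50 of all genes higher with DESeq2, 176 higher and 520 lower with no filter and 3 higher with the block. Without a filter the log2 differences hardly moved while SEs shrank; the cause was not tested. The block has no stated basis in any comparison. For DNMAML against WT it rests on the correlations given above, which some libraries of unlike number matched. Among the members past the threshold and the 3 largest differences each way per comparison, 2 differences turned sign: Nid2 in DNMAML against WT was 0.02 with sex as a term, and Lox ran from -0.99 to 0.35 when a library was left out; the cause was not tested. Col6a3, called under the block, ran from -0.06 to 1.29 in DNMAML against WT over the settings. Upper-quartile and RLE scaling, and dropping robust estimation, left each count of members as it was. A filter at 1 CPM left 38 members, without Lum, and the same counts.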
